A study of Rattus norvegicus with 6 samples.

Results

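The genes described here encode subunits of the mitochondrial respiratory chain and the ATP synthase. They were taken as every biological probe on the array whose gene name begins with Ndufa, Ndufb, Ndufc, Ndufs, Ndufv, Sdha, Sdhb, Sdhc, Sdhd, Uqcr, Cox4, Cox5, Cox6, Cox7, Cox8 or Atp5. This gave 110 probes for 88 gene names, of 30367 probes and 17339 genes on the array. By function, 75 names are subunits: 35 of complex I, 4 of complex II, 7 of complex III, 15 of complex IV and 14 of complex V. A further 5 names are copies or pseudogenes of subunits (Ndufa10l1, Ndufa13-ps, Ndufb4l1, Cox6c1 and Atp5hl1). The remaining 8 start with the same letters but encode other proteins: the assembly factors Ndufaf1 to Ndufaf4 and Sdhaf2, Atp5s (now Dmac2l), Atp5sl (now Dmac2) and Cox4nb (now Emc8).

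RNA came from the hippocampus of male Wistar rats whose common carotid arteries had been tied on both sides (BCCAo), a permanent operation that lowers blood flow to the forebrain without cutting it off. The sampled groups were at day 21, 35, 45, 55 or 70 from surgery, labelled as aged 13, 14, 15, 16 and 17 weeks, and were set against control rats labelled as aged 12 weeks. Age and day therefore move together across the groups, and the labelled ages do not span as many weeks as the days do. RNA was pooled within a group and hybridised to 1 one-colour Agilent array per group, 6 arrays in all. The labels state neither the pool size nor any surgery for the controls.

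With 1 array per group there is no measure of the spread between animals, so no test of any difference was possible and none is reported. All 5 days were compared with the same control array. One slide carried days 21 and 35 and the control, and a second slide carried the last 3 days, so for days 45, 55 and 70 slide and day cannot be told apart. The value used is the scanner software's processed signal, a background-corrected brightness in arbitrary units, and each array was scaled on its own 75th percentile before differences were taken on the log2 scale. That percentile lay between 1243 and 1504, which is why raw signals and scaled differences can point apart slightly. Some probes were printed in 10 copies per array; the spot-to-spot scatter of the 14 such probes among these genes gave an SD of 0.06 log2 units for a difference between single spots on 2 arrays, and 0.09 over all probes printed 10 times. These SDs cover the printing and reading of spots only.

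The respiratory chain carries electrons from NADH through complex I, and from succinate through complex II, by way of ubiquinone to complex III, then by cytochrome c to complex IV, where oxygen is reduced. Complexes I, III and IV pump protons across the inner mitochondrial membrane, and complex V uses the gradient to make ATP. Most subunits are encoded in the nucleus and a small core in mitochondrial DNA, and neurons rely heavily on this system for ATP. Several complex IV subunits exist as alternative isoforms, one of them widespread and the other found mainly in heart and skeletal muscle (Cox6a2, Cox8b) or in lung and other tissues with an oxygen-sensing role (Cox4i2).

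Probe sequences matter for this family, because genes of the same subunit and their copies are close to each other in sequence. The 2 probes for Atp5g3, which encodes the c subunit of the ATP synthase rotor, are shown because they differ from one another. Aligned without gaps they match at 43 of 48 overlapping bases, with 5 mismatches, and the capitals mark the longest run of identical letters, 12 bases. The first lies at chr3:56512525-56512584 (minus strand) of rat build rn4, as the scanner files give it. The second has no position in the scanner files.
Atp5g3 probe 1: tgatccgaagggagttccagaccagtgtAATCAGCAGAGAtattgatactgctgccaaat
Atp5g3 probe 2: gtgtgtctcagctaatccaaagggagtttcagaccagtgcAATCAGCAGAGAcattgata
Cox6c1, a copy of the complex IV subunit gene Cox6c that RefSeq now names Cox6c-ps1, also has 2 probes, which overlap by the 34 bases in capitals. They lie at chr19:54398139-54398198 and chr19:54398113-54398172 on the minus strand of rn4, yet gave very different brightness.
Cox6c1 probe 1: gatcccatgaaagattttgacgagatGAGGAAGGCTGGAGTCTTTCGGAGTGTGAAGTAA
Cox6c1 probe 2: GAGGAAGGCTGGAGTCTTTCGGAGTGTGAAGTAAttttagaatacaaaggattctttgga
The probes of Atp5b, the catalytic beta subunit of the ATP synthase (now Atp5f1b), at chr7:1378451-1378510 (plus strand), and of Uqcrc1, core protein 1 of complex III, at chr8:113965183-113965352 (plus strand, a span longer than the probe's 60 bases), are shown because these genes had the widest spread over the arrays in their complexes.
Atp5b probe: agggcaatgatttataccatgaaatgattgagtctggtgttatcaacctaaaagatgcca
Uqcrc1 probe: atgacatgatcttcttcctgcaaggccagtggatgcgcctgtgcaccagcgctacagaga

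Across the 88 names the signal stayed close to the control. The median difference from the control was -0.02 at day 21, 0.01 at day 35, -0.00 at day 45, -0.00 at day 55 and 0.05 at day 70, on the log2 scale, over 81 to 83 names that could be compared on each day. No name was 2-fold or more higher or lower than the control on any of the 5 days. Of all genes compared, 5.47%, 1.56%, 6.29%, 5.56% and 7.33% were at days 21, 35, 45, 55 and 70. Such differences were few among genes as bright as most of these names, as counted below. At day 21, 2 of 82 names stood 1.3-fold or more above the control and 2 as far below it, beside 12.3% and 12.8% of 13827 genes. At day 35 these counts were 1 and 3 of 81, beside 3.56% and 9.9% of 13820 genes. At day 45 they were 0 and 2 of 83, beside 2.27% and 20.4% of 13673 genes. At day 55 they were 0 and 1 of 82, beside 4.14% and 16.8% of 13869 genes. At day 70 they were 1 and 4 of 82, beside 2.83% and 18.9% of 13792 genes. The fold of a gene dim or saturated on one of the 2 arrays is a bound, and bounds are counted here.

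Most of these genes are bright, and bright probes are read more precisely, so the same counts are given among bright genes. Of the 88 names, 79 belong to the 5780 genes with the highest signal, 1 in 3 of all genes, called bright genes here. Of the 79, the number at least 1.3-fold apart in either direction was 2 of 75 compared at day 21, 2 of 74 at day 35, 0 of 76 at day 45, 0 of 75 at day 55 and 2 of 75 at day 70. The share over all bright genes was 11.0%, 3.14%, 3.81%, 4.14% and 2.64% on those days. The members' share lay near that of bright genes at days 35 and 70 and beneath it on the other days, a difference that was not tested. At 2-fold or more, 71 bright genes were higher and 0 lower at day 21, of 5719 compared. At days 35, 45, 55 and 70 the counts were 1, 0, 3 and 2 higher and 2, 10, 6 and 9 lower. Differences of 2-fold were thus few among bright genes as a whole.

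**Figure D1:**
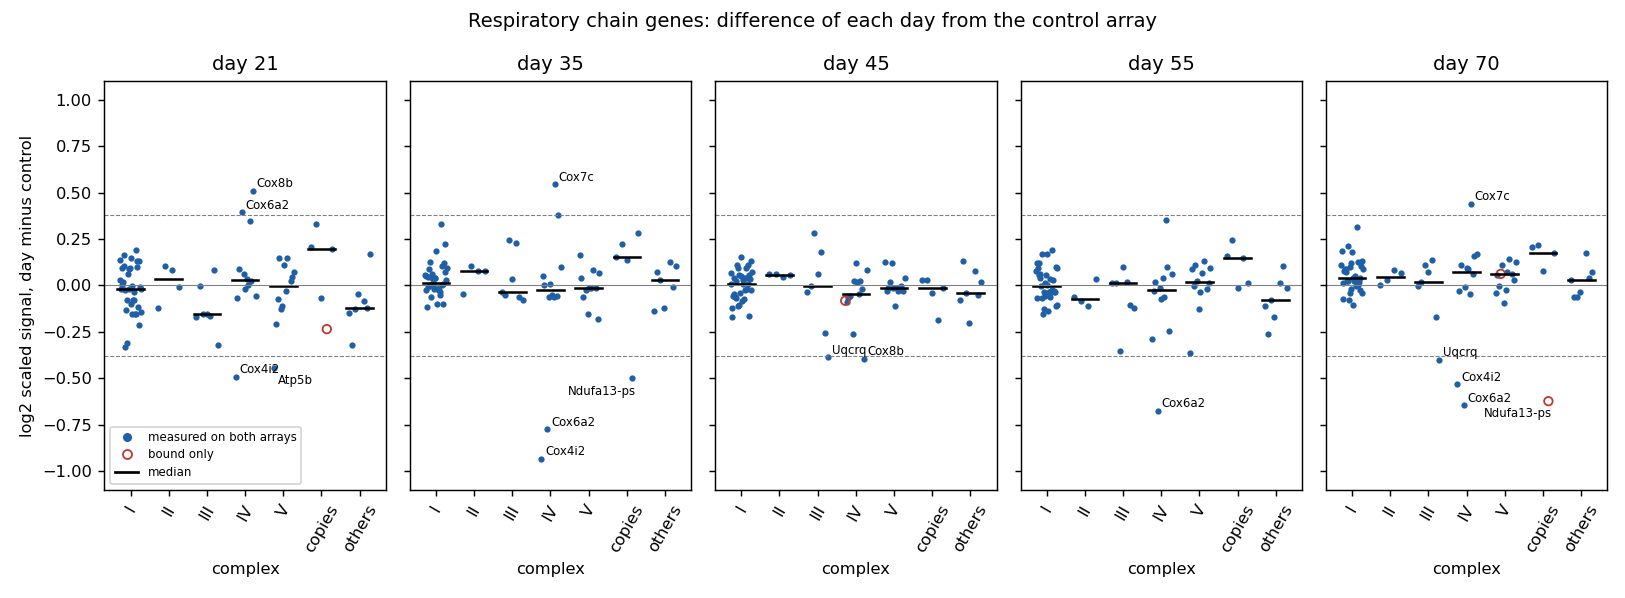
Each point is 1 gene's difference of log2 scaled signal, day minus control, in 1 panel per day, with genes arranged by complex, copies and other names; black bars are medians, open circles are bounds, and dashed lines mark 1.3-fold. Nearly all points lie between the dashed lines on every day, and the named points outside them belong to complexes III, IV and V and the copies, none to complexes I or II.

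The spread of each gene over the 6 arrays, its highest minus its lowest value, was 0.18 log2 units (1.13-fold) in the median of the 80 names measured on every array. It was under 1.3-fold for 70 of them (87.5%). Over the bright genes the median was 0.28 and 71.7% were under 1.3-fold, and over all 12269 genes measured on every array it was 0.39 and 48.7%. Grouped by the control array's signal, 31 names between 10000 and 30000 units had a median range of 0.14, beside 0.24 for 522 genes of that brightness. The 29 names between 1000 and 10000 units had 0.26, beside 0.27 for 3912 genes, and the 7 names under 1000 units had 0.40, beside 0.49 for 7697 genes. The narrow spread thus lay in the bright subunits. For 13 names above 30000 units the median was 0.16, beside 0.24 for 138 genes, a range of signal that runs up to saturation.

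**Figure D2:**
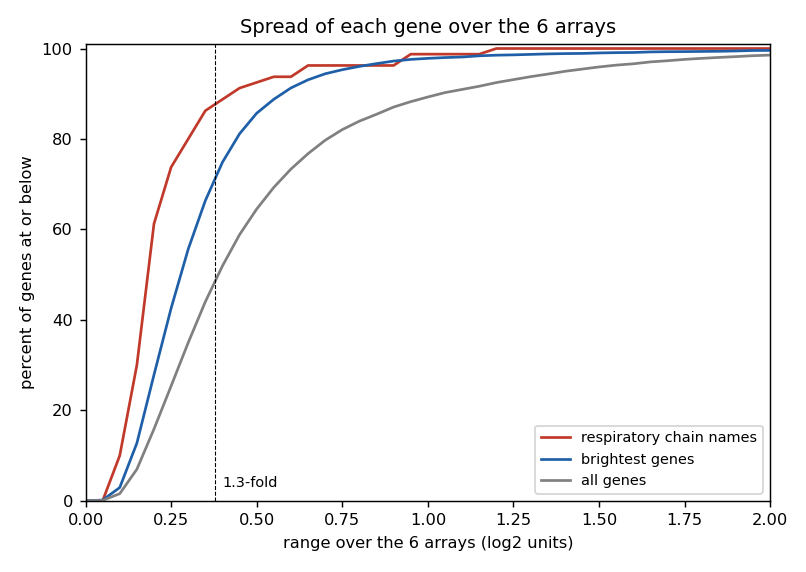
The share of genes (vertical axis, percent) whose range over the 6 arrays is at or below the value on the horizontal axis (log2 units), for the 80 respiratory chain names, the bright genes and all genes measured on every array. The curve of the respiratory chain names lies to the left of the others up to about 1.3-fold, where it stands at 87.5% against 71.7% and 48.7%.

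The arrays did not rank evenly within this narrow range. Of the 80 names, 24 were highest on the day 70 array and 1 was lowest there, while 19 were highest and 31 lowest on the day 21 array. These ranks were not counted over all genes or the bright genes, so they cannot be called special to these names. At day 70, 58 of 82 names stood above the control and 24 below it. Over all genes compared the median at day 70 was -0.04. Over the bright genes it was 0.03, with 3385 of 5713 (59.3%) above the control, so a lean to the same side was present among bright genes as a whole. The day 70 median of the members stayed between 0.02 and 0.13 under every other normalization, probe choice, filter and baseline tried, so its size depends on the scaling. Scaling on the median of probes well above background in place of the 75th percentile gave a median over all genes at day 45 of 0.05 in place of -0.06, and a median over the members of 0.10 in place of -0.00. Relative to all genes, the members at day 45 thus differed by about the same amount under both scalings.

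Complex I, which takes electrons from NADH, had no gene 1.3-fold or more from the control on any day, in 35 of 35 names measured on all arrays. Its medians were -0.02, 0.01, 0.01, -0.00 and 0.04 at days 21, 35, 45, 55 and 70. The 7 core subunits, which hold the flavin and the iron-sulphur clusters, stood at a median of -0.14 at day 21, with 5 of 7 below the control, and at 0.07, 0.04, -0.03 and 0.04 on the later days. The 28 accessory subunits had a median of -0.01 at day 21, with 15 of 28 below the control. Counts below the control at day 21, here and in the groups that follow, stand beside 60.5% of all 13827 genes compared (median -0.07) and 62.3% of the 5719 bright genes compared (median -0.06).

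Ndufv1, which binds NADH and the flavin, stood at -0.01, 0.23, 0.13, 0.10 and 0.13. Its partner Ndufv2 stood at -0.14, 0.03, -0.02, -0.10 and -0.04. Ndufs1, the largest subunit of the electron input module, stood at -0.15, -0.05, 0.04, -0.03 and 0.03, each within 0.15 of the control. Ndufs3, a core subunit read from 10 spots, stood at -0.16, 0.00, -0.02, -0.02 and 0.00. Ndufs7, which carries the last cluster before ubiquinone, stood at 0.13, 0.12, 0.06, -0.03 and 0.04, and Ndufs8, which carries a pair of clusters, at -0.21, 0.07, 0.04, -0.11 and 0.10. Thus 5 of the 7 core subunits were lower at day 21 than at any later day, namely Ndufs1, Ndufs3, Ndufs8, Ndufv1 and Ndufv2. The share of all genes with this order of days was not counted.

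The widest spread in complex I was 0.40 log2 units, in Ndufa9, a subunit beside the ubiquinone channel. Its signal was 2541 in the control and 1943, 2993, 2739, 2239 and 2740 on the 5 days, lowest on day 21. Ndufa7 stood 0.33 below the control at day 21, and within 0.07 of it on the other 4 days. Ndufb8, a bright accessory subunit read from 10 spots, stood at -0.08, -0.02, 0.04, -0.03 and 0.05.

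Complex II, succinate dehydrogenase, is the enzyme shared with the citric acid cycle. All 4 of its genes stayed within 0.12 log2 units of the control on all 5 days. Sdha, the flavoprotein, had signals of 7634 in the control and 6651, 8464, 8041, 7157 and 8085 on the 5 days, which differ by -0.12, -0.05, 0.06, -0.06 and 0.00 after scaling. Sdhb, the iron-sulphur subunit, stood at 0.10, 0.10, 0.06, -0.08 and 0.03. The membrane anchors Sdhc and Sdhd ranged from -0.11 to 0.08 and from -0.01 to 0.08. The widest of the 4 ranges over the arrays was 0.19, in Sdhc.

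Complex III, which passes electrons from ubiquinol to cytochrome c, had the lowest median of the complexes at day 21, -0.15, with 6 of 7 genes below the control. Of these, Uqcrb stood at -0.00, and Uqcr is counted by the brightest of 3 probes, which ran from -0.17 to 0.06. On the later days the complex III median was -0.04, -0.00, 0.01 and 0.02. The genes of complex III had a median range of 0.34 over the arrays, beside 0.16 in complex I and 0.28 in the bright genes. Uqcrc1, core protein 1, had a signal of 4351 in the control and of 3703, 5920, 5345, 3344 and 4968 at days 21, 35, 45, 55 and 70. It was therefore lower than the control at days 21 and 55, by -0.15 and -0.35 log2 units, and higher at days 35, 45 and 70, by 0.25, 0.28 and 0.11. Uqcrc2, core protein 2, did not share this course and stood at -0.15, 0.03, 0.06, 0.10 and 0.07. Uqcrfs1, the Rieske iron-sulphur protein, stood at -0.16, 0.23, 0.18, 0.02 and 0.14. Uqcrq, a small subunit that binds ubiquinone, was a dim probe with signals of 385.3 in the control and 292.4, 418.6, 298.0, 347.6 and 309.0 on the 5 days. It stood 0.39 below the control at day 45 and 0.40 below at day 70, each just past 1.3-fold, and 0.32 below at day 21. Over the settings tried the day 45 value lay between -0.39 and -0.13 and the day 70 value between -0.40 and -0.15, so the 1.3-fold mark was not passed under all of them. Cyc1 and Cycs, cytochrome c1 and cytochrome c, which were read for comparison, stood at -0.10 and -0.12 at day 21 and within 0.14 of the control on the later days.

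Complex IV, cytochrome c oxidase, held 11 of the 15 differences of 1.3-fold or more that were measured on both arrays, and its isoform genes Cox4i2, Cox6a2 and Cox8b accounted for 9 of them. Past 1.3-fold in either direction were 3 of 12 genes that could be compared at day 21, 3 of 12 at day 35, 1 of 13 at day 45, 1 of 12 at day 55 and 3 of 12 at day 70, beside 25.1%, 13.5%, 22.7%, 20.9% and 21.7% of all genes. The complex IV share was higher than the share of all genes at day 35, near it at days 21 and 70 and beneath it at days 45 and 55. Over the bright genes the shares were 11.0%, 3.14%, 3.81%, 4.14% and 2.64%, and the complex IV share was higher than these on all 5 days. Most of the complex IV genes compared are bright, but Cox6a2 and Cox8b are dim. The complex IV share rests on 12 or 13 genes, and neither difference was tested. Its widespread subunits stayed near the control. Cox5a had a signal of 21482 in the control and of 19396, 25470, 20699, 20583 and 22314 on the 5 days, and stood at -0.07, 0.05, -0.07, -0.03 and -0.03 after scaling. Cox5b stood at 0.09, 0.00, -0.05, 0.02 and 0.11, and Cox8a, the widespread isoform of subunit 8, at 0.03, -0.06, -0.02, 0.10 and 0.06. Some spots of Cox8a were saturated at days 35 and 70, so its values on those days are less certain.

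Cox4i2, the oxygen-responsive isoform of subunit 4, had signals of 7296 in the control and 4918, 4380, 6934, 5864 and 5342 at days 21, 35, 45, 55 and 70. The control array was the highest of the 6, day 45 lay close beneath it and day 35 was the lowest. Relative to the control the differences were -0.49, -0.93, -0.09, -0.29 and -0.53 log2 units, and the control was 1.91-fold higher than day 35. Against the mean of the other 5 arrays, day 21 stood 0.12 below and day 35 stood 0.65 below. The other isoform of this subunit, Cox4i1, was saturated on the control, day 35, day 55 and day 70 arrays. With the control saturated it gives no measured difference on any day, and only a bound of -0.08 at day 45.

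In mouse brain Cox4i2 RNA is known from pericytes, the cells that wrap capillaries, so markers of vascular cells are given beside it. Of 12 endothelial and pericyte markers, 7, 10, 9, 9 and 10 stood below the control at days 21, 35, 45, 55 and 70. Of all genes compared, 60.5%, 58.2%, 61.7%, 58.4% and 57.5% stood below it on those days. All 12 markers were well above background on the control array (11 of 12 on the day 21 and day 45 arrays). The summed scaled signal of the list was 9.62, 8.63, 8.93, 9.12 and 8.95 on those days, against 9.30 in the control. Rgs5, a pericyte gene, stood at -0.62, -0.54, -0.24, -0.13 and -0.45, and Pdgfrb, a second pericyte gene, at -0.06, -0.32, 0.06, -0.18 and -0.11. In RNA from whole tissue, fewer cells of a type and less RNA per cell cannot be told apart, and the part of these cells in the Cox4i2 values was not tested.

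Cox6a2, the heart and muscle isoform of subunit 6a, had signals of 165.4 in the control and 205.9, 110.9, 139.3, 101.4 and 112.0 on the 5 days. Of the 80 names measured on every array it had the widest range, 1.17 log2 units, with day 21 the highest array and day 35 the lowest. Its differences from the control were 0.39, -0.77, -0.26, -0.68 and -0.64. The widespread isoform, Cox6a1, was saturated on all 6 arrays. Cox8b, the heart and muscle isoform of subunit 8, had signals of 105.0 in the control and 141.6, 156.4, 80.84, 86.81 and 124.1 on the 5 days. It was higher than the control on both other arrays of its slide, by 0.51 at day 21 (1.42-fold) and 0.38 at day 35, and lower by 0.39 and 0.25 at days 45 and 55, with 0.16 above at day 70. Cox8c, the isoform of subunit 8 known from testis, was not well above background on any array.

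Cox7c, a small subunit of the membrane part, was the one complex IV gene above the control by over 0.3 on 4 of the 5 days. Its signal was 1877 in the control and 2265, 3140, 1931, 2343 and 2698 on the 5 days. The differences were 0.35, 0.55, 0.03, 0.35 and 0.44 log2 units, 1.46-fold at day 35, and the control and day 45 arrays were the lowest of the 6. Against the mean of the other 5 arrays, day 35 stood at 0.31. Cox7a2 and its relative Cox7a2l, which is known for a role in respiratory supercomplexes, stayed within 0.12 of the control on all 5 days, and Cox7b stayed within 0.06. Ndufa4, first assigned to complex I and now counted with complex IV, stood at -0.06, 0.10, 0.08, 0.06 and 0.17.

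**Figure D3:**
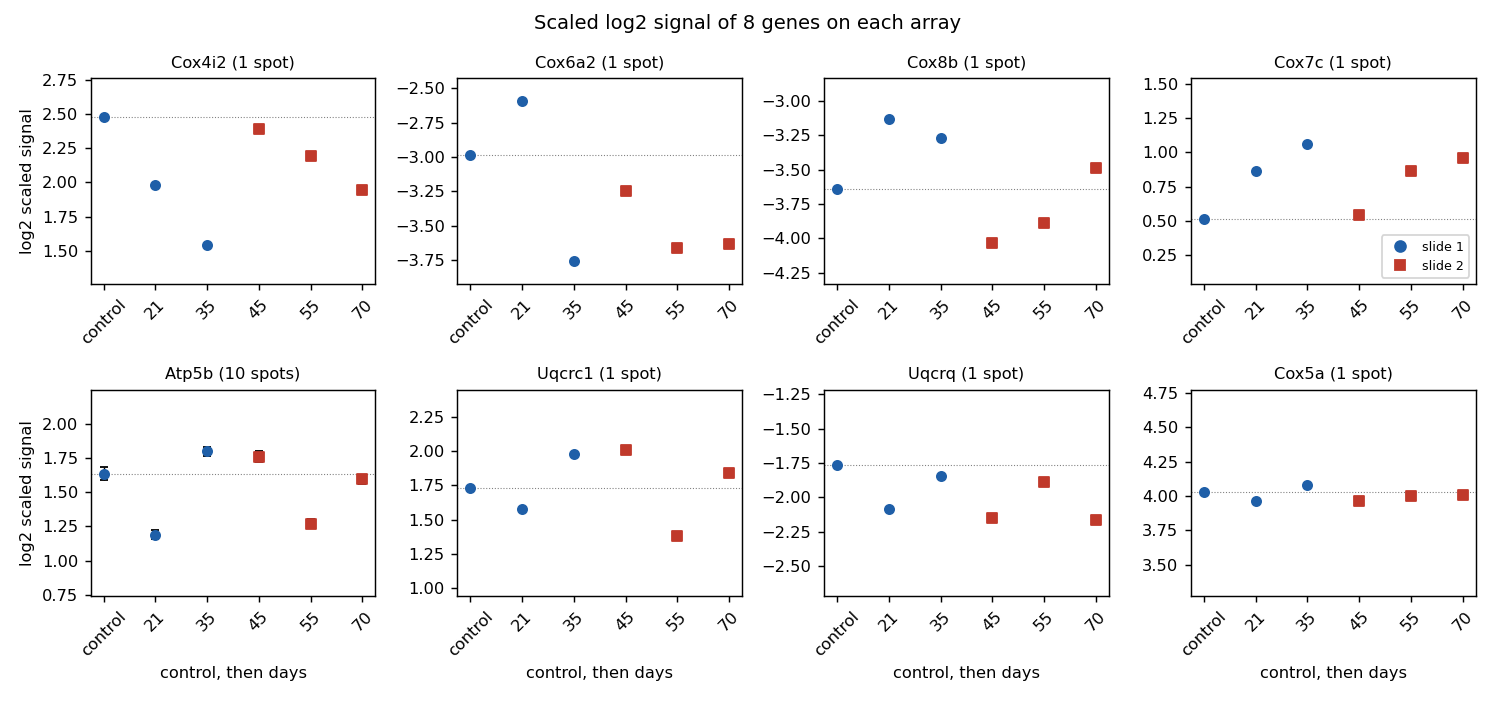
Scaled log2 signal (vertical axes, each 1.5 units high) of 8 genes on the control array and at days 21, 35, 45, 55 and 70, with circles for the first slide and squares for the second; the dotted line is the control value, and bars for Atp5b are the SD of its 10 spots. Cox4i2, Cox6a2 and Cox8b have the widest spread, Atp5b is low at days 21 and 55, and Cox5a stays near its control level.

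Promoter sequences of 75 of the 88 names were present in the RefSeq promoter table (build GRCr8), and the 250 bases before the start were searched on both strands. The site of NRF-1, a regulator of nuclear genes for the chain, searched as GCGCANGCG (a shortened form of the usual site, chosen after a longer form had been counted), was present in 16 of 75 (21.3%), beside 5.53% of 27457 promoters. A core ETS site, CCGGAAG, the kind bound by the regulator NRF-2 (GABP), was present in 23 (30.7%), beside 7.74%. Ndufa13 and Ndufa13-ps share the current name Ndufa13, so its promoter, which has an ETS match, is counted for both names. The TATA box letters TATAAA were present in 5 (6.67%), beside 13.1%. These matches describe letters and are no evidence of binding. The promoters of a widespread and a muscle isoform of the same subunit are printed, because the first stayed near the control and the second was past 1.3-fold on 2 days. Cox8a lies at chr1:213833624-213833873 (minus strand) and Cox8b at chr1:205408274-205408523 (minus strand). Capitals mark the ETS letters, here as their reverse complement CTTCCGG, in Cox8a and the TATA letters in Cox8b.
Cox8a: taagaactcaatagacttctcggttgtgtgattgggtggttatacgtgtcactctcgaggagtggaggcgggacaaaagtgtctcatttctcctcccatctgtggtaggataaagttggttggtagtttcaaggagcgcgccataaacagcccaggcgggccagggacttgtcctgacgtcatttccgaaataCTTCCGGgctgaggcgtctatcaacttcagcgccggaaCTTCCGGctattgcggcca
Cox8b: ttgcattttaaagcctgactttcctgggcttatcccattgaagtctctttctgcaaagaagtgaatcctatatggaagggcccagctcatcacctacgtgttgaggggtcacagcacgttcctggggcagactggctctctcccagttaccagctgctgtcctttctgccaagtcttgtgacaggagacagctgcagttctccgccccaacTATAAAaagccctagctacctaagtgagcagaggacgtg

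Complex V, the ATP synthase, is a rotary motor with a catalytic F1 head and a membrane ring. Its medians were -0.00, -0.02, -0.01, 0.02 and 0.06 at days 21, 35, 45, 55 and 70. Atp5b, the catalytic beta subunit, was its one gene past 1.3-fold. Its signal, the mean of 10 spots, was 4076 in the control and 2836, 5231, 4491, 3098 and 4198 on the 5 days. The days 21 and 55 were low, by -0.44 (1.36-fold) and -0.37 log2 units, and the days 35, 45 and 70 stood at 0.16, 0.12 and -0.04. The SD of its spots was 0.03 to 0.05 log2 units on each array, many times smaller than the differences at days 21 and 55. Atp5a1, the alpha subunit that alternates with it in the head, was saturated on all 6 arrays and gives no comparison. Atp5c1, the central stalk subunit gamma, stood at -0.21, 0.04, -0.03, 0.09 and 0.06, and Atp5d, the stalk subunit delta, at -0.07, -0.06, -0.01, -0.01 and -0.00.

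The 3 genes for the c subunit of the rotor encode the same mature protein with different import signals. Atp5g1 stood at -0.11, -0.15, -0.01, -0.13 and -0.10, all below the control. Atp5g2 stood at 0.11, -0.02, -0.11, -0.04 and -0.02. Atp5g3 stood at -0.03, -0.01, -0.01, 0.07 and 0.07 by its first probe, printed above, and its second probe read 0.18, 0.33, 0.10, 0.30 and 0.39. The probes thus part by up to 0.34 log2 units, and the second, not the first, would be past 1.3-fold at day 70.

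Saturation limits what can be read. Atp5a1, Atp5i (a small membrane subunit) and Cox6a1 were saturated on all 6 arrays, Cox4i1 on 4 and Atp5e (epsilon subunit of the head) on the day 35 and day 70 arrays. Some but not all spots were saturated for Cox8a at days 35 and 70 and for Ndufb8 at day 35. At the other end, Cox8c and the assembly factor Ndufaf2 were not well above background on any array.

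**Figure D4:**
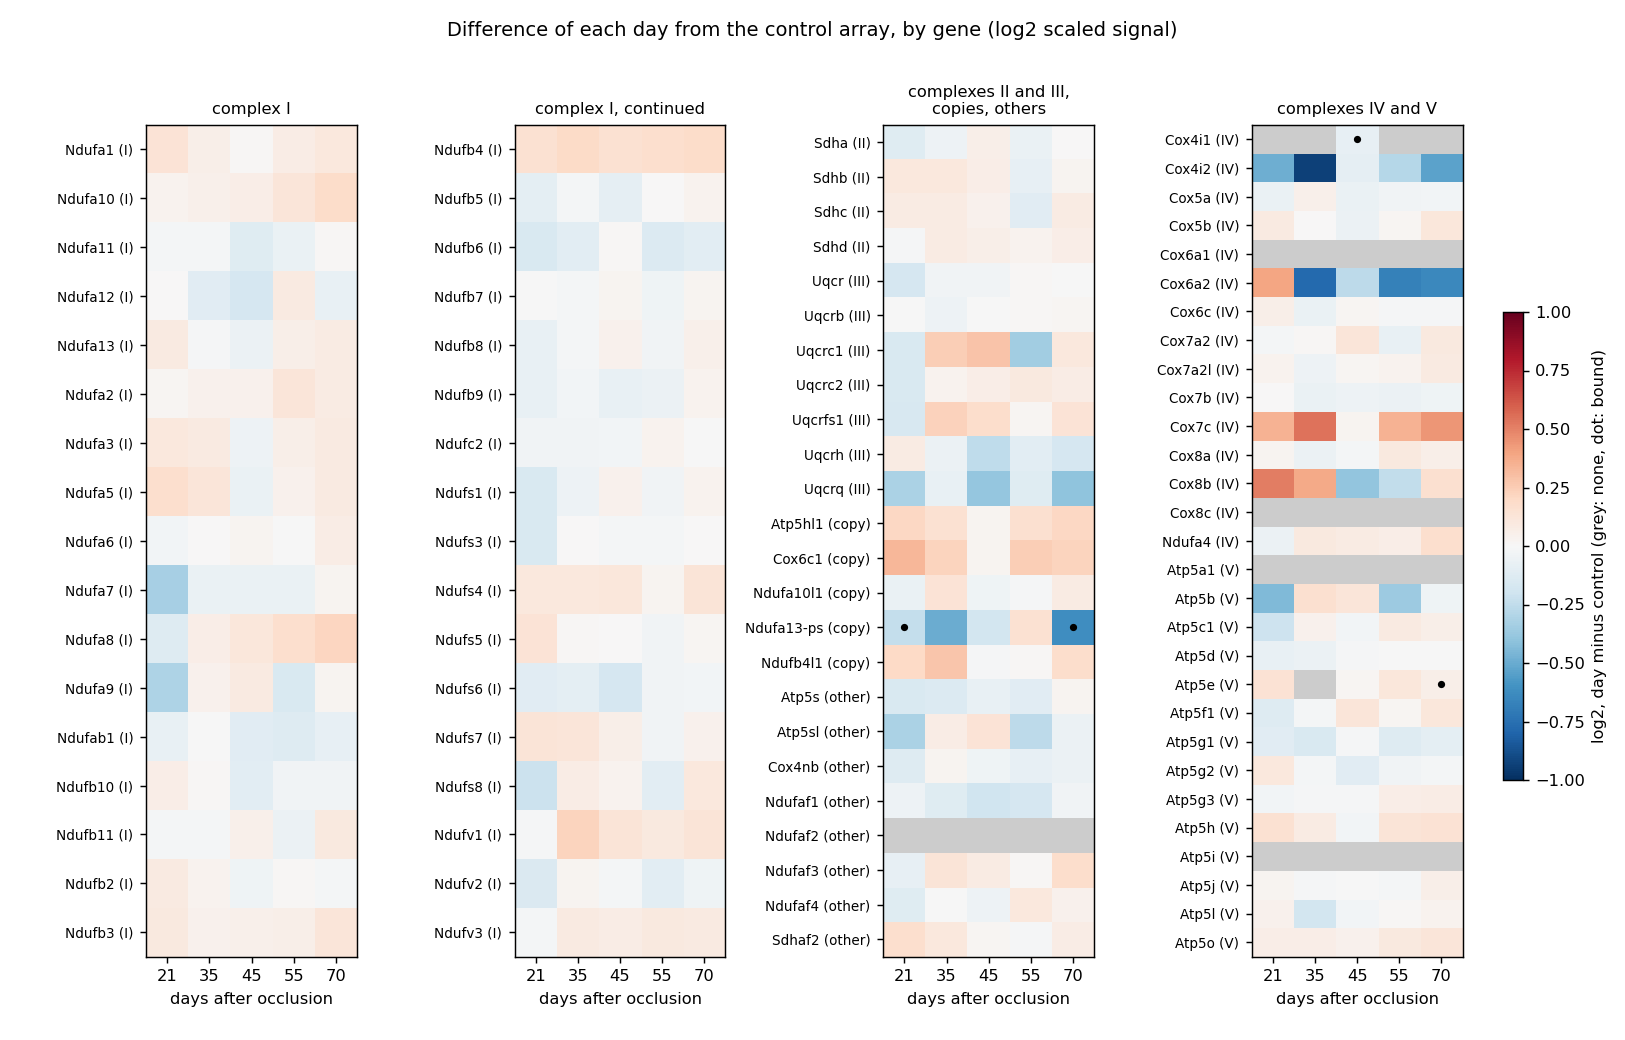
Each row is 1 gene with its complex in brackets, each column a day, and the colour the difference of log2 scaled signal, day minus control, from -1 to 1; grey cells have no difference because of saturation or background and dots mark bounds. Cox4i2 and Cox6a2 are the deepest blue rows and Cox7c the deepest red.

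The 5 copies had medians of 0.20, 0.16, -0.01, 0.15 and 0.17 on the 5 days. The Cox6c and Cox6c1 probes match at 41 of 48 bases in their best ungapped overlap. The probes of the other copies match those of their parents at no more than 19 of 46 bases (Ndufa10l1), 20 of 55 (Atp5hl1), 20 of 59 (Ndufb4l1) and 23 of 54 (Ndufa13-ps). These overlaps compare probe with probe, and probes may lie in different parts of a gene. They therefore do not show how closely a copy's probe matches its parent's RNA. Binding of a parent's RNA to a copy's probe was not tested. The bright Cox6c1 probe had signals of 1988 in the control and 2371, 2664, 2048, 2308 and 2452 on the 5 days, above the control on all 5. The dim probe, which shares 34 bases with it, had 28.6 in the control and 36.4, 39.0, 8.17, 17.5 and 16.7, and so was lower on the last 3 days. The 2 probes differed by up to 1.08 log2 units in their difference from the control, and no direction is given for this copy. Ndufaf4 was the other name of the 18 with more than 1 probe whose probes parted by over 0.5, at day 45 (0.54). Ndufa13-ps, a name RefSeq now places with Ndufa13, had signals of 21.9 in the control and 17.5, 17.8, 19.5, 23.8 and 12.4, all near background, and is past 1.3-fold lower at day 35 (-0.50) and, as a bound, at day 70 (-0.62).

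A further 4 subunit or regulator genes sit on the array under older names and were outside the naming rule: Cox6b1, Uqcr10, Atp5mk and the ATP synthase inhibitor Atp5if1. None of the 4 was 1.3-fold from the control on any day on which it could be measured. Subunits encoded in mitochondrial DNA were found on the array through the file's own descriptions and mitochondrial position. Probes for cytochrome c oxidase subunits 2 and 3, ATP synthase subunit a and NADH dehydrogenase chains 1 and 4 were saturated on all 6 arrays. Among those measured, chain 2 stood at -0.06, 0.06, -0.14, -0.06 and -0.24 and chain 5 at -0.21, -0.19, -0.23, -0.08 and -0.13. Chain 4L stood at 0.13, 0.14, -0.08, 0.16 and 0.13, and ATP synthase protein 8 at -0.17, -0.15, -0.15, -0.21 and -0.14. Chain 6 had the widest spread, at 0.30, -0.19, -0.48, 0.02 and -0.07, and was past 1.3-fold at day 45. A probe for an entry that holds tRNA genes and part of cytochrome c oxidase subunit 1 stood at 0.29, 0.29, -0.10, 0.19 and 0.20. Another probe of subunit 1 was saturated on some arrays, and stood at -0.04 at day 45, with bounds of 0.18 at day 21 and 0.10 at day 55. Of the mitochondrial probes that gave a difference, chain 6 was the one past 1.3-fold.

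Genes that build or feed the chain were read from lists. Of 37 to 38 measured assembly factors, 1, 1, 0, 1 and 1 were higher by 1.3-fold or more and 1, 0, 2, 3 and 2 lower at days 21, 35, 45, 55 and 70. The shares over all genes, given above for the same days, were 12.3%, 3.56%, 2.27%, 4.14% and 2.83% higher and 12.8%, 9.9%, 20.4%, 16.8% and 18.9% lower, and apply to each list here. Their median at day 21 was -0.13, with 28 of 37 below the control. Cox15, which makes the heme of complex IV, stood at -0.17, -0.13, -0.59, -0.55 and -0.67, low on the 3 arrays of the second slide. Sdhaf3, which helps fit the iron-sulphur subunit of complex II, stood at -0.54, -0.04, -0.49, -0.44 and -0.38. Of 15 regulators of mitochondrial biogenesis, 1 was past 1.3-fold on 1 day: the coactivator Ppargc1b, 0.74 above the control at day 55. Its relative Ppargc1a stood at -0.10, -0.28, -0.29, -0.07 and -0.00, and Tfam, which packs mitochondrial DNA, at 0.01, 0.07, 0.06, 0.12 and 0.13. Of 17 pyruvate dehydrogenase and citric acid cycle genes, none was 1.3-fold higher on any day, and 0, 0, 1, 2 and 1 were lower. Pdhx, a structural part of pyruvate dehydrogenase, stood at -1.08, -0.78 and -1.16 at days 45, 55 and 70, from signals of 19.5, 23.2 and 19.3 against 40.7 in the control, all dim; the day 45 value is a bound, since the probe was not well above background there. Among 15 to 16 carriers, porins and import genes, the import pore Tomm40 was lower at days 21 and 55, by -0.43 and -0.57, and stood at 0.12, 0.13 and 0.12 on the other days. Timm44, which ties the import motor to the inner membrane, was well above background at day 35 alone, with a signal of 46.3 there against 12.3 in the control, a bound of at least 1.34 log2 units higher.

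Markers of several cell types differed between the arrays, and their values stand beside the day 21 lows in complex III and the complex I core. Neuronal markers had a median of -0.18 at day 21, with 12 of 13 below the control, and their summed scaled signal was 75.5 at day 21, against 84.2 in the control. Microglia and macrophage markers had a median of 1.78 at day 21, with 14 of 14 above the control, and sums of 74.0 at day 21, against 23.7 in the control. At day 35 the sums of the neuronal and microglial lists were 84.9 and 23.0. Choroid plexus markers summed to 54.8, 28.9, 4.92, 4.86 and 47.0 at days 21, 35, 45, 55 and 70, against 5.14 in the control, where 5 of 14 were not well above background. Red blood cell markers summed to 91.2, 71.7, 44.8, 69.7 and 50.6, against 79.9 in the control. The part of these cell types in the values of the respiratory chain genes was not tested.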

How the data were processed

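Hippocampal RNA pooled by group was hybridised to 6 one-colour Agilent arrays. The deposited files give a processed intensity per spot, made by Agilent Feature Extraction 10.7.3.1 per the file headers; the labels name Cy5, whereas the files hold the green channel only. The authors' deposited value table, also on an intensity scale, was used as an alternative; its 41507 rows rank as the median signal minus background does (Spearman 1.00), with column medians of 298.0 to 298.4, and its scaling is not stated. Control and outlier spots were left out; saturated spots were kept and marked. Processed signals were divided by each array's 75th percentile and put on the log2 scale, and spots of a probe were averaged. Of several probes for a gene, the one with the highest mean signal over the arrays represented it. A probe dim or saturated on 1 of the 2 arrays gives a bound. On each array 74.5% to 80.2% of spots were well above background; the number of arrays limits the precision. Gene names were updated through RefSeq: 95 of the 110 probes by accession, 9 by symbol and 6 by synonym. Named genes were the largest differences past 1.3-fold on each day, core subunits, isoforms, saturated or dim genes, the widest gene of a complex and genes whose probes disagree; the members, lists and this rule were chosen with earlier results of these data known. A list of symbols for mitochondrially encoded subunits matched no array name, so those probes were found by description. The difference step was checked on simulated data. Alternatives were normexp background correction (limma 3.58.1, R 4.3.3), quantile normalization, other scalings, probe rules, filters and baselines. Tables were made with Python 3.11.15, numpy 2.4.6 and pandas 2.3.3. The values of 1 gene counted among the members are not reported here.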

Additional observations from a re-analysis of the deposited data

How the results depend on the processing

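No paired analysis was possible because each group has 1 array. Under other settings 293 complex medians moved by less than the reading error and 7 by more, as did 59 and 1 of the medians over all names. That error is larger than most of these medians, so a median could change sign and still count as unmoved. The complex I median at day 21, for example, lay between -0.03 and 0.01. Leaving out the names that are no subunit could not move a complex median at all. The median over all names at day 45 was 0.10 when scaled on the median of probes well above background, and the complex medians were then 0.11, 0.16, 0.099, 0.070 and 0.090 for complexes I to V; by its construction this scaling shifts every gene of an array alike. The complex III median at day 35 was 0.055 in the authors' deposited values and 0.082 against the other arrays of the slide. The number of genes past 1.3-fold is small and moved more: 42 counts stayed within 1.5 times and 18 did not. At day 21 it was 2 against the other arrays of the slide. At day 35 it was 2 against the mean of the other 5 arrays. At day 45 it was 0 with normexp and in the authors' values, 1 with quantile normalization, median scaling or the mean of the other 5 arrays as baseline, and 4 with every probe counted. At day 55 it was 2 with quantile normalization, median scaling or every probe, and 3 against the other 5 arrays or those of the slide. At day 70 it was 3 with normexp or the authors' values, 8 with every probe, and 2 with either other baseline. Of the values of single named genes 333 (75.7%) moved by less than the reading error and 24.3% by more. That share does not measure stability, because several settings could not move these values. The genes followed have 1 probe each and were measured on every array, so probe averages and filters on saturation or background left them as they were. Against the other arrays of the slide 34 values moved and 6 did not, and with normexp 11 moved and 29 did not. Cox8b at day 45 ranged from -0.55 to -0.08, and Cox6a2 at day 21 from 0.29 to 0.87. The cause of these shifts was not tested. Saturation hides Atp5a1, Atp5i and Cox6a1, and dim probes (Cox6a2, Cox8b, Uqcrq) rest on 1 spot each.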

Other observations

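A course low at days 21 and 55 and not at days 35 and 45 was noticed after the values were seen. Atp5b and Atp5sl stood at least 0.25 log2 units below the control at days 21 and 55 and above it at days 35 and 45. These are 2 of 80 names (2.5%), beside 0.978% of all 12269 genes measured on every array, and Atp5sl is no subunit. Because the course was defined from these values, the shares cannot show whether it is more common among these names. The Atp5sl signals were 257.1, 408.3, 375.6, 277.3 and 344.3 at days 21, 35, 45, 55 and 70, against 338.9 in the control. Tomm40, the import pore, had the same course, with 366.4, 648.5, 576.4, 342.3 and 596.0, against 519.7 in the control. Ogdh, a subunit of the 2-oxoglutarate dehydrogenase of the citric acid cycle, had it in part, with 1714, 2428, 2151, 1500 and 2060, against 2092 in the control.

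Of the 80 names measured on all arrays, 11 stood above the control on all 5 days (13.8%) and 7 below it (8.75%), beside 9.61% and 20.1% of all genes and 12.2% and 14.0% of the bright genes. A gene is read here by its brightest probe. Among those above were Atp5hl1, Atp5o, Cox7c, Ndufa1, Ndufa10 and Ndufb3. Cox6c1, Ndufb4 and Ndufs4 also count among them, but a second probe stood below the control on the last 3 days for Cox6c1 and on all 5 days for Ndufb4 (-0.04, -0.02, -0.12, -0.03 and -0.00) and Ndufs4 (-0.34, -0.20, -0.13, -0.13 and -0.03). Those below were Atp5d, Atp5g1, Cox4i2, Ndufab1, Ndufaf1, Ndufs6 and Uqcrq. A second probe of Ndufab1 stood above the control at days 21 (0.04) and 55 (0.25), and a second probe of Ndufs6 at days 35 (0.01) and 70 (0.05). The second probe of Atp5d stood below it on all 5 days. Because all days share the control array, a single high or low control value gives either course.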
